A study of Mus musculus with 8 samples.

Results

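The interleukin-6 family was examined in cultured articular chondrocytes as 9 genes taken from the 54658 gene symbols of the count table by exact match of the symbol. These were the 4 ligand genes *Il6*, *Il11*, *Lif* and *Clcf1* and the 5 receptor genes *Il6st*, *Il6ra*, *Il11ra1*, *Osmr* and *Lifr*. RNA-Seq was available for 4 samples that received IL-1β at 1 ng/mL for 24 h and 4 samples that received vehicle. The cells were primary chondrocytes of wild-type mice aged 3 weeks, taken from femoral head cartilage and grown in serum-containing medium, and no genetic change distinguished the groups. Nothing in the labels ties a sample to a separate animal or culture, so the p-values measure only the spread between these samples.

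Cytokines of this family act through receptor complexes built around gp130, the shared signal-transducing chain encoded by *Il6st*. IL-6 and IL-11 first bind their own alpha receptors (*Il6ra*, *Il11ra1*) and then recruit gp130, whereas leukaemia inhibitory factor, oncostatin M and the CLCF1 complexes use gp130 paired with the LIF receptor or, for oncostatin M, the oncostatin M receptor. The assembled receptors activate Janus kinases and STAT3, and SOCS3 feeds back on gp130. In joints the family is known for its part in inflammation and in cartilage and bone turnover, and IL-1β is a classical inducer of *Il6* in connective tissue cells.

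Of the 9 genes 7 were tested, and 3 of these passed as higher with IL-1β, against 2.86% of all genes tested. Only *Il6st* also passed a test against a log2 fold change of 1. *Il6st* reached 1363 ± 18.5 CPM (CPM is the count scaled to the same total in every library; SD, n = 4) against 555 ± 8.73 with vehicle, *Lif* reached 18.2 ± 1.66 against 8.33 ± 0.476, and *Il6ra* reached 15.2 ± 0.893 against 7.21 ± 0.793. *Il6* was counted in every IL-1β sample and in no vehicle sample, at a level too low to enter the test. *Lifr* was lower, at 51.7 ± 2.63 against 72.8 ± 4.14 CPM, by less than the fold threshold. For *Clcf1*, *Osmr*, *Il11ra1* and *Il11* no difference was detected.

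Counts were scaled with edgeR's TMM factors and tested by its quasi-likelihood test, with Benjamini-Hochberg adjustment over the 14404 genes that had a CPM above 1 in at least 4 samples. A gene was called when its log2 fold change lay beyond 1 and its adjusted p was under 0.05. Of the 9 genes 7 were tested, 3 were called higher and 0 lower. Among all genes tested, 2.86% were called higher and 2.35% lower. By the adjusted p alone 3 of the 7 were higher and 1 lower, against 20.4% and 19.8% of all genes tested. The median log2 fold change was 0.04 over the 7 genes and -0.0012 over all genes tested. In 3 of the 7 all IL-1β samples lay above all vehicle samples, as in 18.7% of all genes tested, and in *Lifr* all lay below, as in 18.2%.

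**Figure D1:**
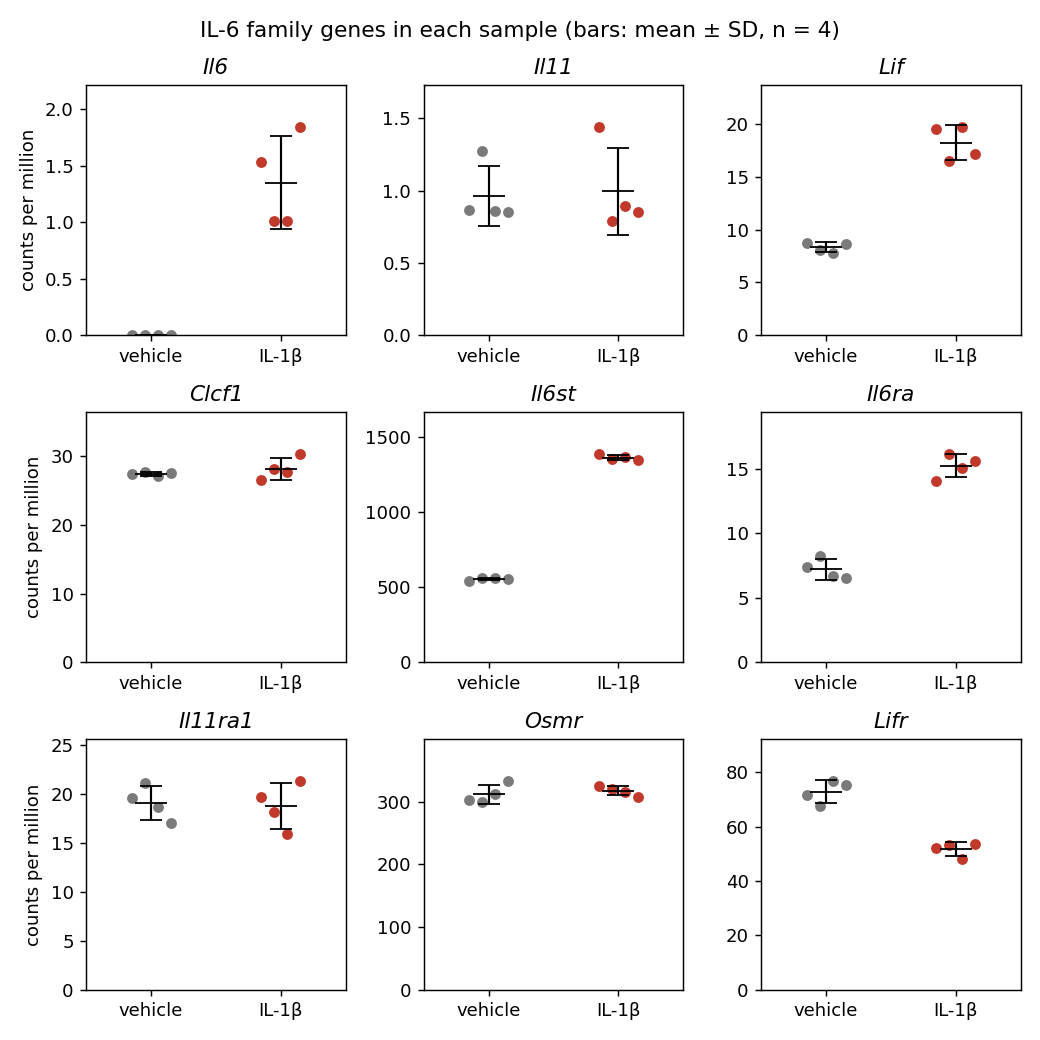
CPM of the 9 genes in each sample, on linear axes that start at 0, with 1 point per sample and black bars for the mean ± SD of 4 samples. *Il6*, *Lif*, *Il6st* and *Il6ra* have every IL-1β point above every vehicle point, *Lifr* has every IL-1β point below, and the points of the other 4 genes overlap between the groups.

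The labelled cell type was checked against its markers. All 6 chondrocyte markers were present in both groups, *Col2a1* at 11191 ± 195 CPM without and 2844 ± 117 CPM with the cytokine, and all 6 were called lower with IL-1β. Summed macrophage markers were at 14.3 to 17.7 CPM with IL-1β and 9.79 to 10.7 CPM with vehicle. Nearly all of this was *Cd68*, a lysosomal gene, at 15.0 ± 1.56 against 9.48 ± 0.730 CPM, while *Ptprc*, *Adgre1* and *Itgam* of the same list had group means of at most 0.148 CPM. *Csf1r*, the fifth of these markers and the receptor for macrophage colony-stimulating factor, was at 0.938 ± 0.337 against 0.721 ± 0.307 CPM, with overlapping groups. Summed lymphocyte, endothelial, fibroblast and erythroid markers stayed at or below 1.25 CPM in every sample. Of the osteoclast markers *Ctsk* was at 134 ± 2.64 against 109 ± 0.852 CPM, with group means of at most 0.580 CPM for *Acp5* and *Calcr*, and of the osteoblast markers *Bglap* was at 5.41 ± 0.651 against 16.5 ± 0.416 CPM, with group means of at most 0.0164 CPM for *Dmp1* and 0 counts of *Sost*. The part of these shifts in the results for the IL-6 family was not tested. Total counts were 10992355 to 17104351 per IL-1β sample and 13970959 to 17456063 per vehicle sample.

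Among the ligands, *Il6* (chr5:30013114-30019981, plus strand, GRCm38) encodes interleukin-6 itself. Its counts were 17, 14, 17 and 26 in the IL-1β samples 1 to 4 and 0 in each vehicle sample. In CPM these were 1.53, 1.01, 1.01 and 1.84, with a mean of 1.35 ± 0.412 (SD, n = 4). The groups did not overlap, and 74 counts stood against 0. A count of 0 over the vehicle group allows up to 3 counts, or 0.0470 CPM. The IL-1β mean was 28.7 times this limit, and the lowest IL-1β sample was 21.5 times it. The limit bounds the vehicle side only and leaves out the error of the IL-1β counts. The difference of the means had p = 0.0286 by the exact permutation test, two-sided, the smallest p that 4 against 4 samples allow. *Il6* missed the filter because IL-1β sample 3 was at 0.994 CPM before TMM scaling. With no filter its adjusted p by the quasi-likelihood test was 6.26e-20, and with a filter of 0.5 CPM, chosen after seeing the data, it was 4.91e-09. Under such filters *Il6* could pass only through the IL-1β samples. The unfiltered fit also gave *Lif* an adjusted p of 1.54e-33 by the quasi-likelihood test, against 1.46e-11 in the main fit. The SE of *Lif* was similar in both fits, at 0.0903 and 0.0885. Adjusted p-values of the unfiltered fit are thus not on the scale of the main fit. In bulk RNA, more cells with *Il6* transcripts and more transcripts per cell cannot be told apart.

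The 250 bases upstream of the *Il6* start are shown because this promoter is where the known IL-1-responsive elements of the gene lie. The letters of 4 motifs were searched on both strands of the 250 upstream bases of 32851 RefSeq start sites (GRCm38.p6). They were the NF-κB consensus, AP-1 (TGANTCA), C/EBP (TTGCNCAA) and a STAT site (TTCNNNGAA), found in 3.90%, 6.75%, 2.61% and 7.02% of all promoters, respectively. The *Il6* promoter held an NF-κB, an AP-1 and a C/EBP match, which do not overlap each other, and no match to the STAT site. These matches are in capitals, from the AP-1 match at the 5′ end through the C/EBP match to the NF-κB match.
*Il6* promoter, chr5:30012864-30013113, plus strand: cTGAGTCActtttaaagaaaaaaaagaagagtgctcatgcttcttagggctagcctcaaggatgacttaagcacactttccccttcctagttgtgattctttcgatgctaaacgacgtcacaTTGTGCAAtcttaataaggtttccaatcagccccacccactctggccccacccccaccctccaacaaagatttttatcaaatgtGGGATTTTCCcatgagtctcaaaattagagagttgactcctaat

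The NF-κB match lay at positions -44 to -35 from the start, the C/EBP match at -128 to -121 on the minus strand, and the AP-1 match at -249 to -243. Promoter sequence was given for 8 of the 9 genes, with 11 start sites in all, and not for *Clcf1*. Outside *Il6* the only matches were AP-1 sites upstream of *Lif* and of the second start of *Il11*, each shown with 12 bases on either side and the match in capitals.
*Lif* promoter window, chr11:4257328-4257358, plus strand: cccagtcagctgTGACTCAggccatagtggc
*Il11* promoter window, chr7:4778221-4778251, minus strand: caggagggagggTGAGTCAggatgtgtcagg

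None of the 4 motifs matched upstream of *Il6st*, *Il6ra*, *Il11ra1*, *Osmr* or *Lifr*. That says only that these letters are not in these windows. An AP-1 match was thus present at *Lif*, which rose, and at *Il11*, for which no difference was detected.

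The genes known to act on *Il6* were described from a list of 6, of which all were tested, 4 were called higher and 0 lower, with a median log2 fold change of 1.66. Over all genes tested 2.86% were called higher and 2.35% lower, and the list was chosen with earlier results of these data known. *Nfkbiz*, which encodes the IκBζ cofactor needed at the *Il6* promoter, was at 275 ± 8.43 against 44.3 ± 2.06 CPM (log2 fold change 2.63, SE 0.0359). *Cebpb* and *Cebpd* encode C/EBP factors and had log2 fold changes of 1.30 and 2.01. *Zc3h12a*, whose product regnase-1 cleaves *Il6* mRNA, was at 103 ± 2.81 against 5.03 ± 0.715 CPM, a 20.2-fold difference. *Zfp36*, encoding the mRNA-destabilising protein tristetraprolin, was lower by the adjusted p but not called (log2 fold change -0.49, SE 0.0761, edgeR adjusted p = 5.70e-06). *Arid5a*, whose product stabilises *Il6* mRNA, was at 47.5 ± 3.02 against 47.1 ± 0.933 CPM. The genes called higher were thus *Nfkbiz*, *Cebpb* and *Cebpd*, whose products act on the gene, and *Zc3h12a*, whose product acts on the mRNA. For *Arid5a* no difference was detected (edgeR adjusted p = 0.876).

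*Lif* (chr11:4257557-4272514, plus strand) encodes leukaemia inhibitory factor. It was at 19.5, 16.4, 19.7 and 17.1 CPM in the IL-1β samples and at 8.77, 8.09, 7.77 and 8.67 CPM in the vehicle samples. The lowest IL-1β sample was above the highest vehicle sample. The log2 fold change was 1.12 (SE 0.0885, 95% interval 0.94 to 1.31, adjusted p = 1.46e-11), a 2.18-fold difference. A test against the threshold itself (edgeR's glmTreat at a log2 fold change of 1) gave an adjusted p of 0.691, so a change of more than 2-fold was not shown.

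*Il11* (chr7:4772373-4782859, minus strand) encodes interleukin-11. Its counts were 16, 11, 15 and 12 with IL-1β and 15, 22, 12 and 13 with vehicle. The groups overlapped throughout, at 0.994 ± 0.301 and 0.962 ± 0.206 CPM (exact permutation test, two-sided, p = 0.829). *Il11* exceeded 1 CPM in 2 samples and was not tested across genes. When no filter was applied, the fitted log2 fold change was -0.0036 with a 95% interval of -0.59 to 0.58. A change of about that size could go undetected at this depth. The interval comes from the unfiltered fit, so it is not comparable with those of the tested genes and sets no firm bound.

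*Clcf1* (chr19:4214238-4223490, plus strand) encodes cardiotrophin-like cytokine factor 1. It was at 26.5, 28.1, 27.6 and 30.3 CPM with IL-1β and at 27.4, 27.7, 27.0 and 27.5 CPM with vehicle. The IL-1β samples lay on both sides of the narrow vehicle range. The log2 fold change was 0.04 with a 95% interval of -0.07 to 0.15 (edgeR adjusted p = 0.626). In the reference annotation 8.17% of the exon bases of *Clcf1* are shared with another gene model on the same strand. How reads in the shared part were counted is not stated in the sources used here.

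The other genes of the family were a list of 11, of which 1 was tested and 0 were called. Over all genes tested 2.86% were called higher and 2.35% lower. *Ctf1*, encoding cardiotrophin-1, was at 3.60 ± 0.597 and 3.62 ± 0.391 CPM. *Osm*, encoding oncostatin M, had 4 counts over all 8 samples, and *Cntfr*, encoding the alpha receptor for ciliary neurotrophic factor, was at 0.387 ± 0.129 and 0.377 ± 0.0726 CPM. The receptor chain for oncostatin M was therefore abundant in cells in which its ligand was nearly absent from the counts.

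Among the receptors, *Il6st* (chr13:112464070-112510086, plus strand) had the largest fold change and the highest level of the genes tested in the family. It was at 1388, 1354, 1364 and 1345 CPM in the IL-1β samples and at 543, 562, 559 and 557 CPM in the vehicle samples. The spread within each group was small beside the gap between them. The log2 fold change was 1.29 (SE 0.0281, 95% interval 1.24 to 1.35, adjusted p = 1.01e-24), a 2.45-fold difference. Of the 7 genes tested, *Il6st* alone passed the test against a log2 fold change of 1 (edgeR glmTreat, adjusted p = 1.93e-10). By fold change it ranked 285 of the 412 genes called higher, with *Lif* at 351 and *Il6ra* at 373.

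The study concerns the microRNA miR-146a-5p, so the 3′ UTRs of the family were searched for matches to its seed. The mature sequence from RefSeq (chr11:43374435-43374456, minus strand, GRCm38.p6) is printed with the seed, bases 2 to 8, in capitals.
mmu-miR-146a-5p: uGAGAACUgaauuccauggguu

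The complement of the seed, AGTTCTC, was found in the 3′ UTR of 2 of the 9 genes, *Il6st* with 2 sites and *Il11ra1* with 1. Over the tested genes with a 3′ UTR in the annotation, 11.2% of 11797 held at least 1 site. The *Il6st* UTR is 5641 bases long, and the *Il11ra1* UTR 354 bases. The sites are shown with 11 bases on either side and the seed match in capitals.
*Il6st* site 1, chr13:112507733-112507761, plus strand: gaagaactcgaAGTTCTCagctgtgcctc
*Il6st* site 2, chr13:112509130-112509158, plus strand: cacgtgcgcacAGTTCTCtctcctttcct
*Il11ra1* site, chr4:41769358-41769386, plus strand: cagggagcaaaAGTTCTCtgcatgtgtgt

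Of these genes *Il6st* rose with IL-1β, and for *Il11ra1* no difference was detected. The microRNA itself was not measured in these libraries, and a seed match is a description of the sequence.

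*Il6ra* (chr3:89864059-89913196, minus strand) encodes the alpha chain that binds IL-6. It was at 14.1, 16.2, 15.1 and 15.6 CPM with IL-1β and at 7.38, 8.26, 6.70 and 6.51 CPM with vehicle. The groups were clearly apart, with no IL-1β sample below 14.1 CPM. The log2 fold change was 1.07 (SE 0.0955, 95% interval 0.88 to 1.27, adjusted p = 1.99e-10), a 2.10-fold difference. The interval includes 1, and the glmTreat test gave an adjusted p of 1. In the annotation 2.80% of its exon bases are also covered by a gene on the opposite strand.

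*Il11ra1* (chr4:41699989-41769474, plus strand) encodes the alpha chain for IL-11. It was at 19.7, 18.2, 15.9 and 21.3 CPM with IL-1β and at 19.6, 21.1, 18.7 and 17.0 CPM with vehicle. The groups overlapped, and the log2 fold change was -0.04 with a 95% interval of -0.21 to 0.13 (edgeR adjusted p = 0.763). Of the 50-base stretches of its transcripts, 46.3% also occur in the near-identical genes *Il11ra2* and *Gm13305*, which held 1 and 28 counts over all samples. How reads shared by these copies were counted is not stated in the sources used here, so the level of *Il11ra1* is uncertain.

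*Osmr* (chr15:6813577-6874969, minus strand), encoding the oncostatin M receptor chain, was at 325, 321, 316 and 309 CPM with IL-1β and at 303, 300, 313 and 333 CPM with vehicle. The vehicle samples spanned the whole IL-1β range. Its log2 fold change was 0.02 with a 95% interval of -0.05 to 0.10 (edgeR adjusted p = 0.624). With group means of 318 and 312 CPM, *Osmr* gave the narrowest interval of the genes for which no difference was detected.

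*Lifr* (chr15:7090614-7197489, plus strand) encodes the LIF receptor chain. It was at 52.0, 53.4, 47.9 and 53.6 CPM with IL-1β and at 71.4, 67.6, 76.7 and 75.4 CPM with vehicle. The highest IL-1β sample was below the lowest vehicle sample. The log2 fold change was -0.49 (SE 0.0464, 95% interval -0.59 to -0.40, adjusted p = 6.19e-10), which is 29.0% fewer transcripts and does not reach the fold threshold. *Lif* and its receptor chain thus moved in opposite directions, *Lif* past the threshold and *Lifr* short of it.

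**Figure D2:**
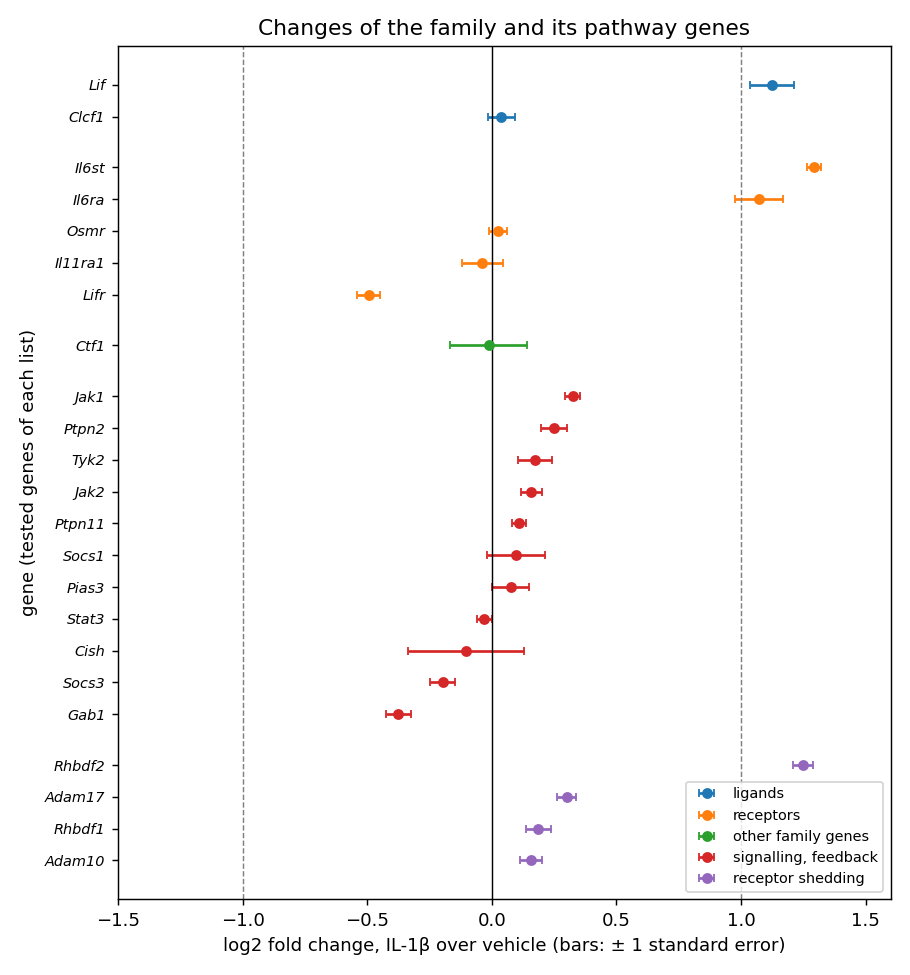
Log2 fold change (IL-1β over vehicle) with ± 1 standard error for the tested genes of the family and of 3 related lists, with dashed lines at -1 and 1. *Il6st*, *Lif*, *Il6ra* and *Rhbdf2* lie beyond 1, and the signalling genes lie between -0.37 (*Gab1*) and 0.32 (*Jak1*).

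Levels of different genes were compared only per length, as CPM per kb of total exon length. With vehicle, *Il6st* was the highest at 50.0 ± 0.786, followed by *Osmr* at 25.8 ± 1.25. *Clcf1* at 7.38 ± 0.0748, *Lifr* at 6.76 ± 0.384, *Il11ra1* at 4.28 ± 0.386, *Lif* at 1.91 ± 0.109 and *Il6ra* at 0.835 ± 0.0918 came next, and *Il11* at 0.462 ± 0.0991 and *Il6* at 0 closed the order. No neighbours in this order overlapped in their sample ranges by the listed lengths. *Clcf1* has a listed length of 3713 bases but 3806 exon bases in the reference annotation. Its lowest vehicle sample was at 7.28 and the highest of *Lifr* at 7.12, so their separation depends on the length used. With IL-1β, *Il6st* stood at 123 ± 1.66 and *Osmr* at 26.2 ± 0.601, so the gap between them widened from 1.94-fold to 4.68-fold. *Lifr* at 4.80 ± 0.244, *Il11ra1* at 4.20 ± 0.517 and *Lif* at 4.18 ± 0.381 followed *Clcf1*, and the ranges of neighbours among these 3 overlapped. *Il6ra* stood at 1.76 ± 0.103, and *Il6* at 0.556 ± 0.170 overlapped with *Il11* at 0.478 ± 0.145 at the foot of the order. By this measure *Il6st* was above 94.6% of the genes tested with vehicle and 98.1% with IL-1β, whereas *Il6ra* was above 15.9% and 28.8%.

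**Figure D3:**
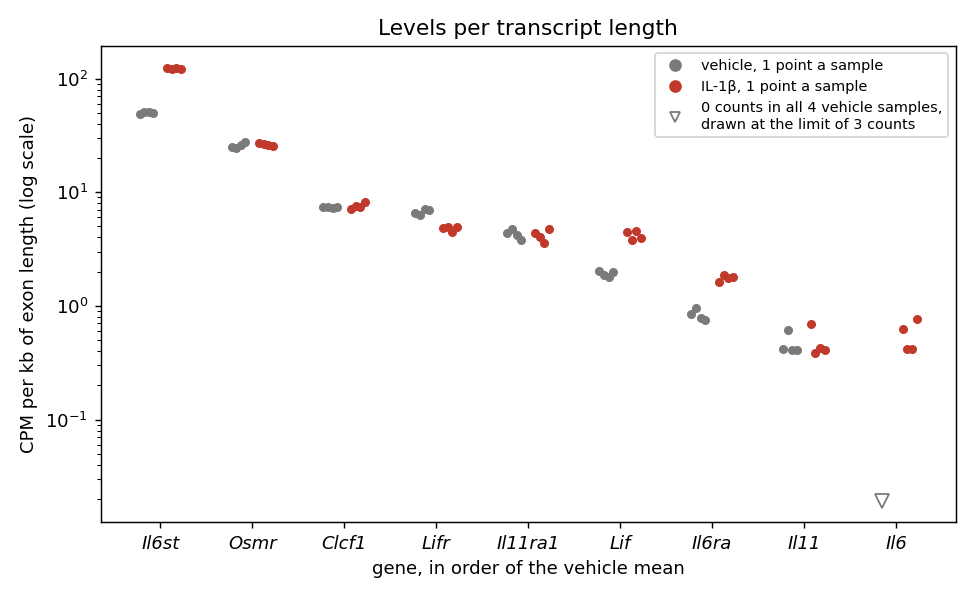
CPM per kb of exon length on a log axis for the 9 genes in order of their vehicle mean, with 1 point per sample in grey for vehicle and red for IL-1β. *Il6st* leads in both groups at 50.0 and 123, and the open triangle marks *Il6* with vehicle, 0 counts in all samples, at the limit of 3 counts over the group.

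The balance between receptor chains was followed as the log2 ratio of counts per kb within each sample, which does not depend on library scaling. The chain for oncostatin M against that for LIF, *Osmr* to *Lifr*, had linear ratios of 5.57, 5.35, 5.86 and 5.12 with IL-1β and 3.78, 3.94, 3.63 and 3.93 with vehicle. The groups did not overlap, and the log2 ratio was 2.45 ± 0.0829 against 1.93 ± 0.0564, a difference of 0.52 (exact permutation test, two-sided, p = 0.0286, adjusted p = 0.0429 over 3 ratios). The alpha chains were far below gp130 in both groups. Per length, *Il6st* exceeded *Il6ra* 69.8-fold with IL-1β and 60.2-fold with vehicle. The log2 ratio of *Il6ra* to *Il6st* was -6.12 ± 0.103 against -5.91 ± 0.156, a difference of -0.21 that did not pass (exact permutation test, two-sided, p = 0.0571, adjusted p = 0.0571). *Il6st* exceeded *Il11ra1* 29.4-fold with IL-1β and 11.7-fold with vehicle. The log2 ratio of *Il11ra1* to *Il6st* was -4.88 ± 0.185 against -3.55 ± 0.132, a difference of -1.32 (exact permutation test, two-sided, p = 0.0286, adjusted p = 0.0429). The smallest p these tests allow is 0.0286, and ratios with *Il11ra1* carry the doubt about its copies. The difference in *Osmr* to *Lifr* follows the fold change of *Lifr* given above, and that in *Il11ra1* to *Il6st* follows that of *Il6st*. These ratio tests are therefore not separate evidence. Transcript ratios are not ratios of receptor protein.

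**Figure D4:**
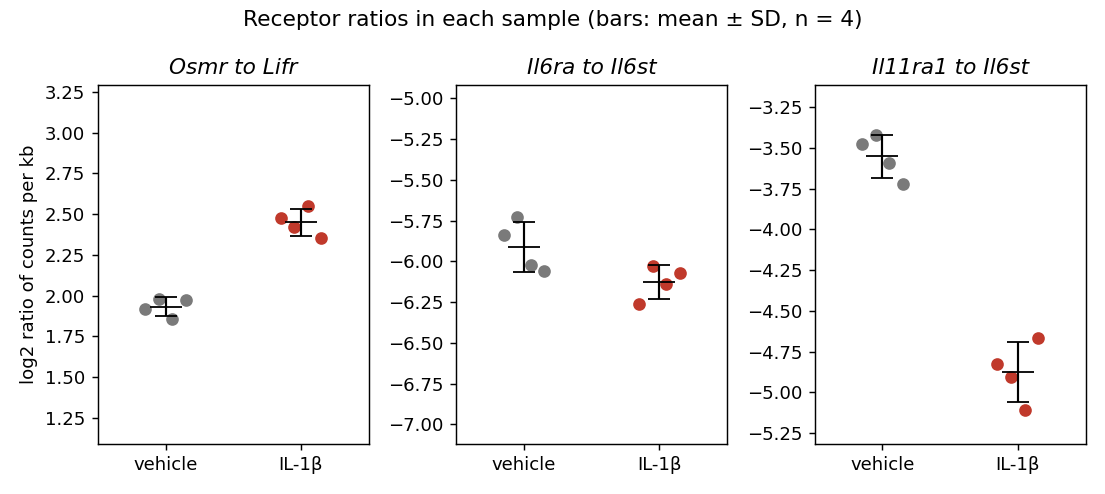
Log2 ratio of counts per kb for 3 pairs of receptor genes in each sample, with black bars for the mean ± SD of 4 samples and axes of equal span that do not start at 0. *Osmr* to *Lifr* is higher with IL-1β (2.45 against 1.93), *Il11ra1* to *Il6st* is lower (-4.88 against -3.55), and the *Il6ra* to *Il6st* points overlap.

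Downstream of the receptors, 11 genes of signalling and feedback were all tested. In either direction 0 were called, where 2.86% of all genes tested were called higher and 2.35% lower. A count of 0 in 11 is near these shares. By the adjusted p alone 5 were higher and 2 lower, against 20.4% and 19.8% of all genes tested, with a median log2 fold change of 0.10. *Jak1*, the main Janus kinase of gp130, was at 147 ± 3.56 against 117 ± 0.604 CPM (log2 fold change 0.32, SE 0.0304, edgeR adjusted p = 5.72e-10). *Ptpn2*, a phosphatase that acts on Janus kinases and STATs, had a log2 fold change of 0.25, and *Jak2*, *Tyk2* and *Ptpn11* had 0.16, 0.17 and 0.11. *Stat3* was at 164 ± 4.50 against 168 ± 3.66 CPM, a difference that did not pass (edgeR adjusted p = 0.474). *Socs3*, the feedback inhibitor that binds gp130, was lower at 39.8 ± 2.84 against 45.6 ± 1.87 CPM (log2 fold change -0.20, SE 0.0502, edgeR adjusted p = 0.00220), and the adaptor *Gab1* was lower by a log2 fold change of -0.37. Of the remaining genes *Socs1*, *Cish* and *Pias3* did not pass.

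Soluble IL-6 receptor arises in part by cleavage of the membrane-bound alpha chain. Of 4 genes of receptor shedding, all were tested and were higher by the adjusted p, and 1 was called. Over all genes tested these shares were 20.4% and 2.86%. The gene called was *Rhbdf2*, encoding the iRhom2 protein that carries the protease ADAM17 to the cell surface, at 117 ± 4.66 against 49.1 ± 1.57 CPM (log2 fold change 1.25, SE 0.0398, edgeR adjusted p = 1.15e-20). *Adam17* had a log2 fold change of 0.30, *Adam10* 0.16 and *Rhbdf1* 0.19.

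Of 11 genes known to be induced by STAT3, all were tested, 5 were called higher and 0 lower, with a median log2 fold change of 0.59. Over all genes tested the shares were 2.86% and 2.35%, and this list too was chosen with earlier results of these data known. The genes called were *Saa3* (721 ± 51.8 against 0.915 ± 0.338 CPM), *Hp* (238 ± 10.6 against 1.71 ± 0.431 CPM), *Lcn2* (8081 ± 252 against 285 ± 9.82 CPM), *Cebpd* and *Bcl3*, whose log2 fold changes were 9.57, 7.09, 4.83, 2.01 and 1.93. *Saa3*, *Hp* and *Lcn2* encode acute-phase proteins, and these genes are also known targets of NF-κB and C/EBP factors. *Pim1*, *Timp1* and *Junb* were higher by the adjusted p with log2 fold changes of 0.59, 0.54 and 0.49. *Socs3* and *Myc* were lower, *Myc* with a log2 fold change of -0.14, and *Mcl1* did not pass. Genes of the list thus moved in both directions, with *Socs3* opposite to the acute-phase genes.

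The genes with profiles most like those of the called genes were found by the Euclidean distance of centred log2 CPM over the 8 samples, as a description. Nearest to *Il6st* were *Cp*, *Dstn* and *Hspa4l*, at distances of 0.108, 0.116 and 0.129. *Cp*, encoding ceruloplasmin, was at 280 ± 9.25 against 111 ± 3.00 CPM. Nearest to *Lif* were *Map3k5*, *Plin2* and *Dpy19l1*, at distances of 0.194 to 0.206, and nearest to *Il6ra* were *Car9*, *Foxf1* and *Bid*, at 0.201 to 0.226. The distances were smallest for *Il6st*, which also had the most counts of the 3 called genes.

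The fold changes of the 7 tested genes were recomputed under other normalizations, tests, filters and designs and with each sample left out. *Il6st* stayed between 1.28 and 1.30 on the log2 scale, *Lif* between 1.08 and 1.17, *Il6ra* between 1.03 and 1.15 and *Lifr* between -0.53 and -0.45. The direction of *Il11ra1* changed with the samples used, between -0.11 and 0.04.

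**Figure D5:**
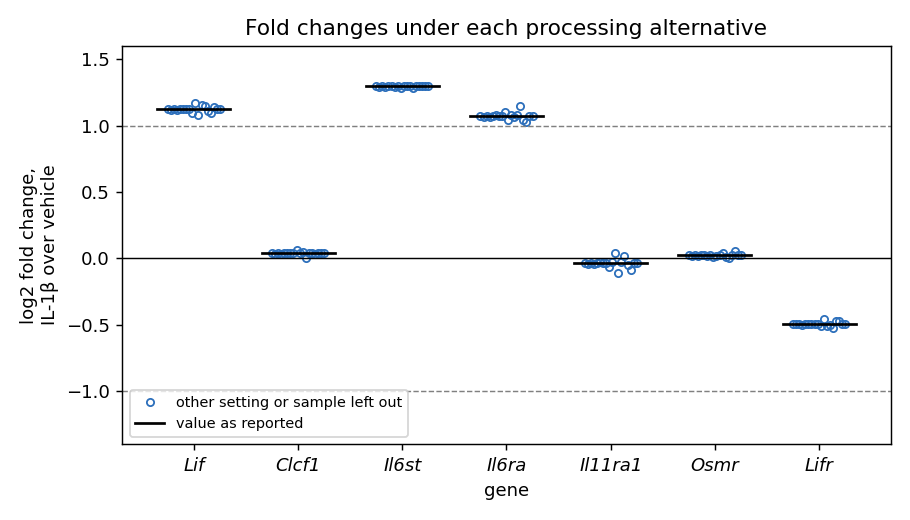
Log2 fold change (IL-1β over vehicle) of the 7 tested genes as reported (black lines) and under each other setting or with a sample left out (open circles), with dashed lines at -1 and 1. *Il6st*, *Lif* and *Il6ra* stay above 1 throughout, *Lifr* stays between -0.53 and -0.45, and *Il11ra1* crosses 0.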

How the data were processed

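RNA-Seq of 8 samples was used. The authors aligned cutadapt-trimmed reads to mm10 and a GENCODE annotation with STAR (2.4.2a in the submitters' processing notes, another version in the methods) and assigned them to genes with featureCounts. The deposited values are unscaled, whole-number counts per gene symbol, beside a gene length in bases (unit: other). The methods name a batch correction with RUVseq, and whether these counts precede it is not stated. It could change the spread within groups.

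Groups follow the treatment label of each sample. After TMM scaling, edgeR 4.0.16 (R 4.3.3) fitted a model of treatment alone to the 14404 genes that exceeded 1 CPM in 4 or more samples, and the code was tested on simulated data. Ratios were tested by exact permutation (scipy). Alternatives were DESeq2 1.42.0, its size factors, total library size, other filters, a replicate block, a RUVs factor, glmTreat, no fold threshold, another length, and samples left out. Total counts were 10992355 to 17456063, where 3 counts are 0.173 to 0.270 CPM after scaling; such floors cover counting error only. Libraries within a group differed beyond sampling noise (chi-square per degree of freedom 1.98 to 6.34), and each was treated as a sample. That difference does not show that they came from separate animals or cultures. The common biological coefficient of variation in the fit was 4.11%. The gene with most counts, *Gm26917*, took 13.2% to 14.6% of each library.

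Positions, exon overlaps and 3′ UTRs (longest coding transcript) came from GENCODE vM21 on the same assembly (GRCm38), and promoters and the microRNA from RefSeq. Named genes are the 9 of the family, the genes of the lists, and the 3 nearest profiles of each called gene. Of the genes first listed, 2 are not reported here. The members and lists were chosen with earlier results of these data known.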

Additional observations from a re-analysis of the deposited data

Results flagged for a closer look

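In 2 of 23 sets of 4 samples, both of *Il11*, a single sample stood apart from the others, with a gap to its nearest neighbour of more than 0.829 of the range (Dixon's 95% critical value). Chance gives about 1 in 20. IL-1β sample 1 was at 1.44 CPM beside 0.793 to 0.891 CPM in the other 3 (ratio 0.849), and vehicle sample 2 was at 1.27 CPM beside 0.854 to 0.865 CPM (ratio 0.974). These are 16 and 22 counts.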

How the results depend on the processing

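The family's 3 calls as higher and 0 as lower were kept with DESeq2, its size factors, total library size, the stricter filter, 1 RUVs factor and each sample left out. The looser settings, no filter and a filter of 0.5 CPM, were exceptions, where *Il6* made it 4 higher. Under both, *Il6*, with 0 counts in each vehicle sample, could enter only through the IL-1β samples, so that call adds no support. The 0.5 CPM filter was chosen after seeing the data. Testing against a log2 fold change of 1 (glmTreat) left 1 call as higher among the 7 genes tested, *Il6st*, with adjusted p of 0.691 for *Lif* and 1 for *Il6ra*. Without the fold threshold 1 gene, *Lifr*, was lower. With samples left out, the log2 fold change of *Il11ra1* ran from -0.11 to 0.04, changing sign without IL-1β sample 3 (0.043) or vehicle sample 2 (0.02), and the difference in mean CPM of *Il11* ran from -0.12 to 0.14, turning negative without IL-1β sample 1 (-0.12), vehicle sample 3 (-0.0027) or vehicle sample 4 (-0.0031). The *Il6* difference ran from 1.18 to 1.46 CPM. The ratio differences ran from 0.49 to 0.55 for *Osmr* to *Lifr*, from -1.39 to -1.25 for *Il11ra1* to *Il6st* and from -0.26 to -0.15 for *Il6ra* to *Il6st*. With 3 against 4 samples the exact permutation test cannot go below p = 0.0571, so these say nothing of stability by p. Exon lengths of the reference annotation, which equal the listed lengths for these 5 receptors, cancel from the ratio differences and test nothing. Over all genes, 412 higher and 339 lower became 635 and 571 without a filter, 266 and 245 with a CPM above 1 in all 8 samples, 262 and 175 with glmTreat, and 2944 and 2852 without the fold threshold.

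The labels give both groups the replicate numbers 1 to 4. Deviations of same-numbered samples correlated at 0.0321, -0.042, -0.0131 and -0.0653, within the range of other pairs (-0.0712 to 0.0797). Not every sample correlated best with its own number. No pairing was thus detected, but correlations this small cannot exclude that equal numbers mark a shared animal, pool or culture. In the fit with a replicate block 3 genes of the family were called higher and 0 lower, and 411 and 340 of all genes. Depth limits *Il6* and *Il11*, at 26 counts or fewer per sample.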
